A study of Mus musculus with 12 samples.

Results

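The regulators of G-protein signalling (RGS) examined here were 9 genes, Rgs1, Rgs2, Rgs3, Rgs10, Rgs12, Rgs14, Rgs16, Rgs18 and Rgs19, among 55291 gene symbols in the deposited expression table. They were taken by symbol. The family was chosen by the ozone minus filtered-air difference of Rgs1 in these same 12 mice, which was known to be large, so the exposure differences of the 9 genes are given as a description, without p-values. All mice were female C57BL6/NJ, 8 to 11 weeks old. One group of 6 breathed 0.8 ppm ozone for 4 h a day on 4 consecutive days, and the other group of 6 breathed filtered air instead. Lungs were taken 3 days after the last exposure, and alveolar macrophages, which patrol and clear the air spaces of the lung, were flow-sorted in 2 batches with 3 mice of each group in each batch. Each sample was the polyadenylated RNA of a separate mouse.

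Heterotrimeric G proteins carry the signals of chemokine, complement and many other receptors, and they stay active while their alpha subunit holds GTP. RGS proteins bind the active alpha subunit through their RGS domain and speed the hydrolysis of GTP, which shortens the signal. Members of the R4 subfamily are mostly small proteins built around the RGS domain, while R12 and RZ members differ in the sequences that flank it. In leukocytes, RGS proteins are known for limiting migration toward chemokines.

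Values were on a variance-stabilized, batch-corrected scale that behaves as log2 for well-counted genes and flattens toward low counts. In every gene the filtered-air mean was 0 and the means of the batches were equal, so a value is a distance from the filtered-air mean, and absolute levels cannot be compared between genes. Among genes with few reads, the most common step above the lowest value of a batch was 0.0973 to 0.115 units. Taken as 1 read, with steps assumed to follow the square root of the reads, this step gave relative library depths of 0.871 to 1.22. Total counts were not analysed here. A test across the genome was run on the 19633 genes that stood above the shared minimum of their batch in at least 6 of 12 mice. In that test (limma with flow-sort batch as a covariate, Benjamini-Hochberg adjusted p under 0.05) 473 genes were higher and 361 lower after ozone. All 12 alveolar macrophage markers examined stood above the shared minimum of their batch in all mice. A minimum held by a single mouse of a batch was not counted as shared. The library of filtered-air mouse 4 stood apart, with the lowest RNA integrity number of the 12 (8.9) and the highest filtered-air level of B cell, monocyte, neutrophil, epithelial and endothelial markers, so values without it are given where they move. In bulk RNA, a change in the share of a cell type and a change in RNA per cell cannot be told apart, here and below.

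All 9 RGS genes stood above the shared minimum of their batch in all 12 mice and entered the test. Rgs1 was the 1 member that passed it and the 1 member whose groups did not overlap. None of the other 8 passed (0 of 8). Over all genes kept, 4.25% passed and 3.53% had groups that did not overlap. Because the same contrast chose the family, nothing is read from these counts. No other member had a difference near that of Rgs1. The median over the other 8 members was 0.0099, and the largest in absolute size, that of Rgs3, was 0.14. Over all genes kept the median difference was -0.0033 and the median absolute difference was 0.046.

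**Figure D1:**
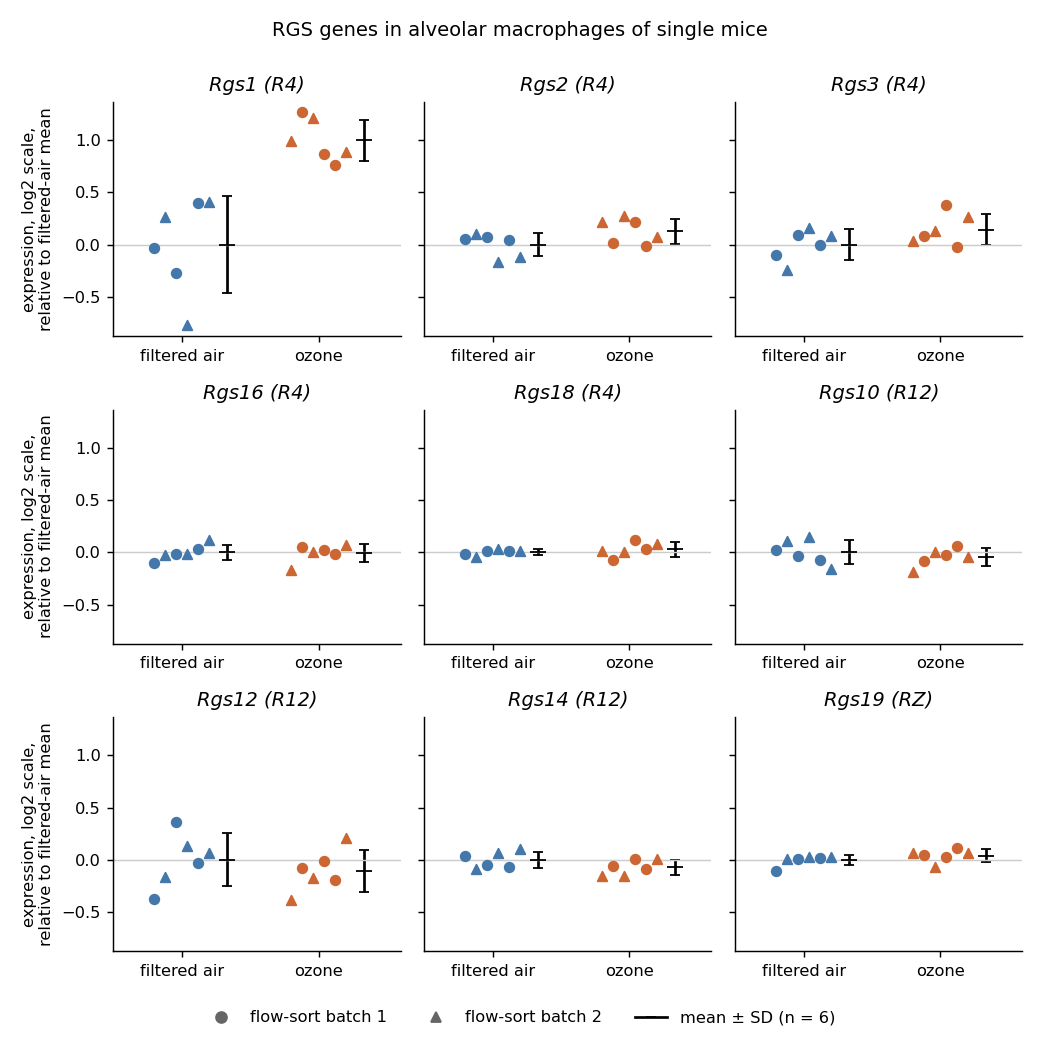
Expression of the 9 RGS genes in each of 12 mice, as distance from the filtered-air mean on the log2 scale (y axis), by exposure group (x axis), with a line at each group mean. The 6 ozone mice lie between 0.77 and 1.264 for Rgs1, above all 6 filtered-air mice, and the groups overlap for the other 8 genes.

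Rgs1, an R4 member induced in activated leukocytes and known to dampen chemokine receptor signals, lies on chromosome 1 at chr1:144242296-144249242 on the minus strand (GRCm38). In filtered air its lowest, median and highest values were -0.77, 0.12 and 0.41. After ozone they were 0.77, 0.94 and 1.264. Every ozone mouse therefore exceeded every filtered-air mouse, with a gap of 0.36 between the lowest ozone and the highest filtered-air mouse. Here and below, the SE of a difference is that of limma, with its variance moderated toward that of all genes kept. For Rgs1 this SE is smaller than its own SDs would give. The Rgs1 difference was 1.00 ± 0.17 (SE, n = 6 per group), and 3 genes of 19633 had a larger absolute difference. It was 0.93 among the mice of batch 1 and 1.06 among those of batch 2, and the batch 2 value was 0.69 without filtered-air mouse 4, a setting added after the data were seen. Rgs1 did not pass after quantile normalization or within a single batch, and its difference was then 0.80 to 1.06.

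Rgs1 values were more spread out in filtered air than after ozone, a contrast in spread that was not tested. Its SD was 0.46 over the filtered-air mice and 0.20 over the ozone mice, a ratio of 2.31. Filtered-air values covered 1.18 units and ozone values 0.50. Among all genes kept, 19 had a larger filtered-air SD than Rgs1, against a median SD of 0.074, and 48.6% of genes had a larger SD in filtered air than in ozone. Filtered-air mouse 4, at -0.77, was the lowest by a wide margin. Without it the filtered-air values ran from -0.27 to 0.41, with a mean of 0.15 and an SD of 0.30. The difference was then 0.83, and 111 genes had a larger filtered-air SD.

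In filtered-air mouse 4 the mean over 6 B cell markers was 0.32, over 6 monocyte markers 0.33 and over 6 epithelial and endothelial markers 0.34, and the mean over 12 alveolar macrophage markers was the lowest of the filtered-air mice, at -0.082. Across the ozone mice the B cell mean ranged from -0.28 to -0.11 and the monocyte mean from -0.29 to 0.083. Across the filtered-air mice these means ranged from -0.25 to 0.32 and from -0.24 to 0.33. Of these 2 lists, 0 of 12 genes passed the test, with 4 B cell markers and 1 monocyte marker at an unadjusted p under 0.05, and all 12 had lower means after ozone. Of the alveolar macrophage markers, Chil3 and Car4 passed as higher and Krt79 and Ear1 as lower. Marco, singled out after its values were seen, had the largest difference of the 12 (0.58 ± 0.19 SE) but did not pass (limma adjusted p = 0.108). Its values ran from -0.945 to 0.52 in filtered air and from 0.43 to 0.78 after ozone, with SDs of 0.53 and 0.12. Of the T and NK cell markers 0 of 7 passed, Cspg4 of 5 mural markers was higher, and Epcam of 6 epithelial and endothelial markers was lower. The part of these markers in the Rgs1 values was not tested.

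**Figure D2:**
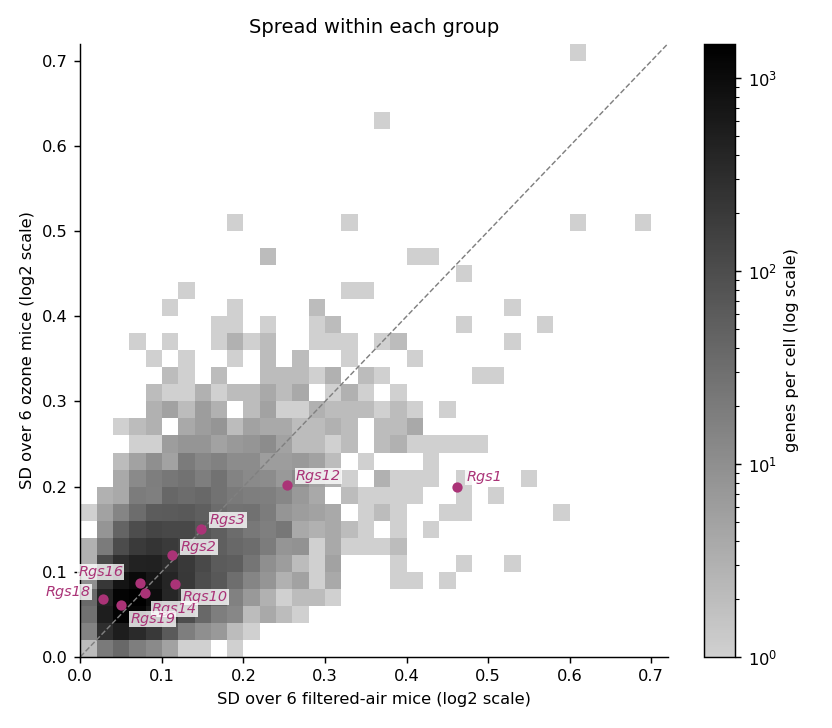
SD over the 6 filtered-air mice (x axis) against SD over the 6 ozone mice (y axis), both on the log2 scale, with shading for the number of genes per cell among 19633 genes and points for the 9 RGS genes. Rgs1 lies far to the right at 0.46 and 0.20, Rgs12 is the next widest at 0.25 and 0.20, and Rgs18, at 0.028 and 0.068, lies above the dashed line of equal SD.

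Among the other R4 members, Rgs2 and Rgs3 had higher means after ozone with overlapping groups. Rgs2, which acts preferentially on Gq alpha subunits (chr1:143999338-144004161, minus strand), had lowest, median and highest values of -0.17, 0.050 and 0.11 in filtered air. After ozone these were -0.013, 0.14 and 0.27, and 3 of 6 ozone mice lay above all filtered-air mice. Its difference was 0.13 ± 0.063 (SE, n = 6 per group). It was 0.013 in batch 1 and 0.25 in batch 2.

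Rgs3, an R4 member whose long isoforms carry further domains (chr4:62559847-62704001, plus strand), had values of -0.24, 0.041 and 0.16 in filtered air, in the same order. After ozone they were -0.023, 0.11 and 0.38, with 2 of 6 ozone mice above all filtered-air mice. The difference was 0.14 ± 0.077 (SE, n = 6 per group), and it was 0.15 in batch 1 and 0.14 in batch 2, or 0.22 there without filtered-air mouse 4. Both the Rgs2 and the Rgs3 difference lay inside the central 95% of all genes, from -0.19 to 0.21. Without filtered-air mouse 4 they were 0.093 and 0.18. The Rgs3 difference fell to 0.091 without filtered-air mouse 2 and to 0.093 without ozone mouse 4.

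Rgs16 and Rgs18, the remaining R4 members, had similar values in both groups. Rgs16, an activation-induced regulator in lymphocytes (chr1:153740349-153745468, plus strand), ran from -0.098 to 0.12 in filtered air with a median of -0.013, and from -0.17 to 0.069 after ozone with a median of 0.012. Its difference was -0.0072 ± 0.048 (SE, n = 6 per group), with opposite signs in batch 1 (0.045) and batch 2 (-0.059), and leaving out filtered-air mouse 1 gave -0.029 and leaving out ozone mouse 1 gave 0.029. Rgs18, known from platelets and megakaryocytes (chr1:144752683-144775435, minus strand), ran from -0.049 to 0.028 with a median of 0.012 in filtered air, and from -0.075 to 0.12 with a median of 0.018 after ozone. Its difference was 0.027 ± 0.038 (SE, n = 6 per group), between 0.0067 without ozone mouse 4 and 0.050 without ozone mouse 2. The groups overlapped in both genes, and the ozone values of Rgs18 extended past those of filtered air at both ends. Both genes sit in the alphabetical stretch of the table, where 42.4% of values of varying genes stood at the shared minimum. In the rows before it this share was 0.010%. Over genes kept the median absolute difference was 0.034 in the stretch and 0.057 in the rows before it. Whether low counts compressed the differences of Rgs16 and Rgs18 was not tested. Of 6 platelet markers 5 were kept and 0 passed (0 at an unadjusted p under 0.05).

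The 3 R12 members had slightly lower means after ozone over both batches, each with overlapping groups. Rgs10, a small R12 member studied for restraint of microglial activation (chr7:128373621-128418758, minus strand), had lowest, median and highest values of -0.16, -0.010 and 0.15 in filtered air and -0.19, -0.037 and 0.064 after ozone. Its difference was -0.046 ± 0.057 (SE, n = 6 per group), and -0.012 without filtered-air mouse 4, which had the highest Rgs10 value, and -0.082 without filtered-air mouse 6. It was 0.017 in batch 1 and -0.11 in batch 2, or -0.049 there without filtered-air mouse 4. Rgs14, which also binds Ras-family GTPases and inactive G alpha subunits (chr13:55369732-55384687, plus strand), had values of -0.090, -0.0086 and 0.10 in filtered air and -0.16, -0.074 and 0.014 after ozone. In 3 of 6 ozone mice Rgs14 lay below all filtered-air mice. Its difference was -0.071 ± 0.047 (SE, n = 6 per group), at -0.018 in batch 1 and -0.12 in batch 2.

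Rgs12, a large multidomain relative of Rgs14 (chr5:34949445-35039644, plus strand), was the most variable member after Rgs1 in filtered air and had the largest SD of the 9 after ozone. Its values were -0.37, 0.019 and 0.36 in filtered air and -0.39, -0.12 and 0.21 after ozone, with SDs of 0.25 and 0.20. The difference was -0.10 ± 0.11 (SE, n = 6 per group), which is smaller than its own error. It was -0.080 in batch 1 and -0.13 in batch 2 (-0.066 there without filtered-air mouse 4), -0.023 without filtered-air mouse 3 and -0.19 without filtered-air mouse 1. Its filtered-air SD was larger than that of 98.6% of genes.

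Rgs19, the 1 RZ member, which acts on Gi alpha subunits (chr2:181688419-181693977, minus strand), had values of -0.10, 0.016 and 0.032 in filtered air and -0.068, 0.055 and 0.12 after ozone. In 4 of 6 ozone mice it lay above all filtered-air mice. The difference was 0.042 ± 0.039 (SE, n = 6 per group), and it was 0.088 in batch 1 and -0.0033 in batch 2. Leaving out filtered-air mouse 1 gave 0.020, and leaving out ozone mouse 3 gave 0.067. In all, 4 of 5 R4 members and the RZ member were higher on average, and 3 of 3 R12 members were lower, although in batch 1 Rgs10 was higher.

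**Figure D3:**
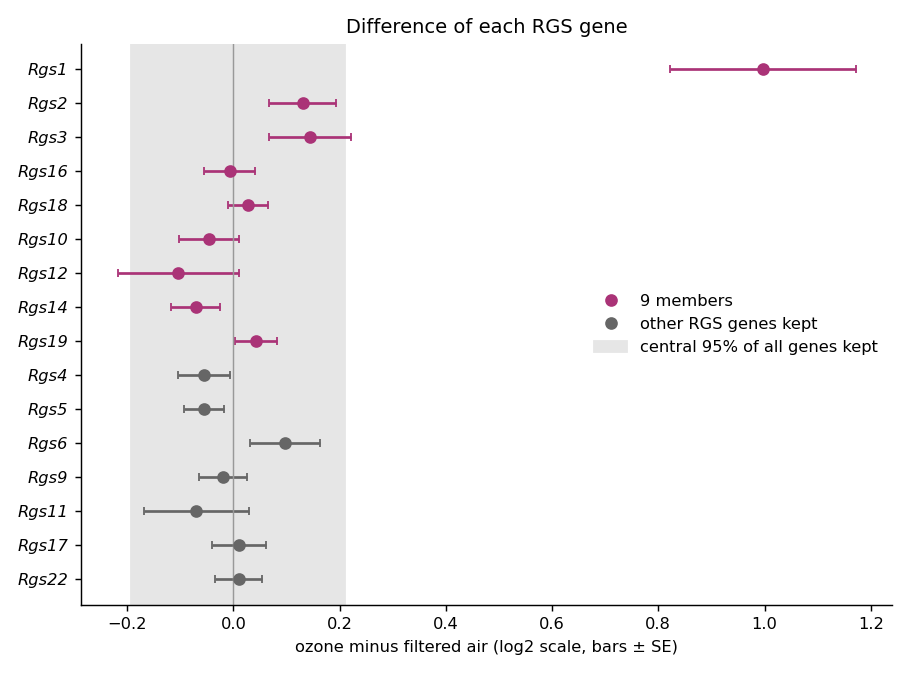
Difference between ozone and filtered air (x axis, log2 scale) for the 9 members and the 7 other RGS genes kept. Bars are ± the moderated limma SE (6 mice per group), and the central 95% of all genes is shaded. Rgs1 at 1.00 is the 1 RGS gene outside the shaded range of -0.19 to 0.21.

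The remaining RGS genes were examined apart from the choice of members. Of the 12 listed, Rgs7, Rgs8 and Rgs21 were constant in the table, and Rgs13 and Rgs20 had too few mice above the shared minimum. The 7 genes kept (Rgs4, Rgs5, Rgs6, Rgs9, Rgs11, Rgs17 and Rgs22) had a median difference of -0.020, with 3 higher and 4 lower. In limma, 0 of 7 passed and 0 had an unadjusted p under 0.05. Rgs6, an R7 member that works in complex with a G beta subunit, had the smallest p: its difference was 0.097 ± 0.066 (SE), with a 95% interval of -0.043 to 0.24 (limma adjusted p = 0.520). Of these 7 genes, 6 lie in the alphabetical stretch, where the median absolute difference was smaller. The part of low counts in this was not tested.

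Whether the response differed between the flow-sort batches is independent of the contrast that chose the genes. The interaction of exposure and batch in limma passed for 0 of 9 members, and 0 members had an unadjusted p under 0.05. Across all genes 0% passed, with 510 genes at an unadjusted p under 0.05 and a smallest adjusted p of 0.320. For Rgs1 the difference in batch 2 exceeded that in batch 1 by 0.13 ± 0.36 (SE), and without filtered-air mouse 4 it was -0.24, in the opposite direction. For Rgs2 the corresponding value was 0.23 ± 0.11 (SE) (limma adjusted p = 1.00). With 3 mice per group and batch, this interaction is estimated with errors of up to 0.36.

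The covariation of the members among mice was measured on deviations from the group means, which removes the exposure difference. Over 12 mice, 0 of 8 relations of Rgs1 with another member reached a permutation p under 0.05, and 6 of 8 were negative. The closest was with Rgs10, with Pearson r = -0.549 (two-sided permutation p = 0.0633, adjusted over the 8 relations 0.464) and a Spearman coefficient of -0.518 (permutation p = 0.0880). Without the 2 mice farthest from the median of Rgs1 its r was -0.105. It was -0.290 without filtered-air mouse 4, -0.643 in batch 1, which does not hold that mouse, and -0.522 in batch 2. With Rgs2, the member most like it, r was 0.321, and it was -0.091 without filtered-air mouse 4.

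The 28 pairs without Rgs1 were examined after these results were seen. By Pearson correlation 5 pairs had a permutation p under 0.05 and 0 did after adjustment over the 28 pairs. By Spearman correlation 2 pairs passed adjustment, both with Rgs3. The resamples shuffled the deviations over all mice, although centring on group and batch means leaves fewer independent values. The permutation p-values can therefore be too small, and whether the 2 pairs would pass with this accounted for was not tested. Rgs3 and Rgs12 had r = 0.714 (permutation p = 0.0097, adjusted 0.136) and a Spearman coefficient of 0.846 (permutation p = 0.00091, adjusted 0.0255). Without the 2 farthest mice their r was 0.782, and it was 0.610 in batch 1 and 0.826 in batch 2. Rgs3 and Rgs18 had r = 0.734 (permutation p = 0.00582, adjusted 0.136) and a Spearman coefficient of 0.811 (permutation p = 0.00214, adjusted 0.0300), with r = 0.568 without the 2 farthest mice and 0.676 and 0.891 in the batches. Without filtered-air mouse 4 the r of these pairs was 0.702 with Rgs12 and 0.730 with Rgs18. The r of Rgs1 was -0.384 with Rgs3, -0.309 with Rgs12 and -0.427 with Rgs18, and the difference between these and the Rgs3 correlations was not tested.

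**Figure D4:**
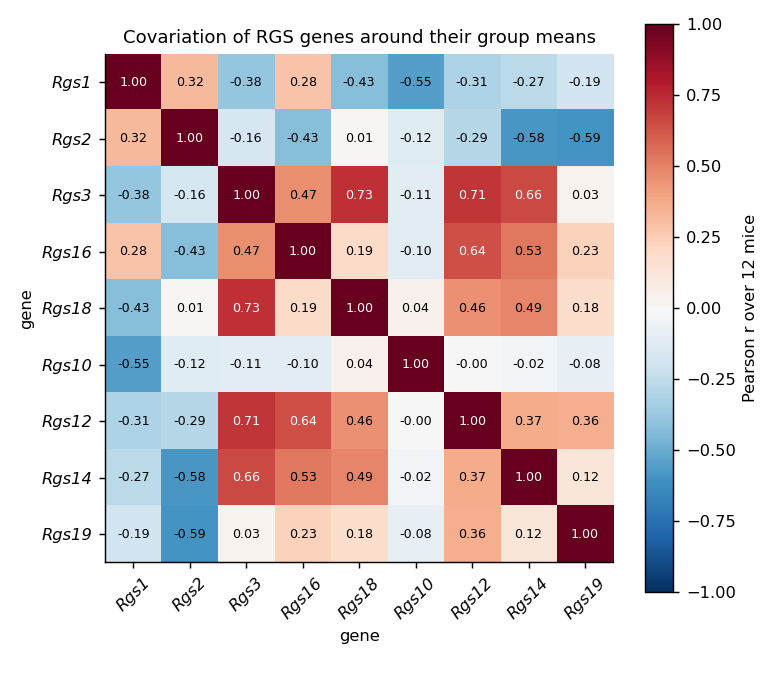
Pearson r between RGS genes over 12 mice (colour and number in each cell), computed on deviations from the group means, with genes on both axes. Rgs3 with Rgs12 and with Rgs18 stand at 0.71 and 0.73, and Rgs1 is negative with 6 of the 8 other members.

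The genes whose deviations were most like those of Rgs1 over the 12 mice were Mtrex (r = 0.950), Zfp426 (r = 0.949), Zfp599 (r = 0.937), Thrap3 (r = 0.918) and Zik1 (r = 0.917). Mtrex is a helicase of nuclear RNA surveillance, Thrap3 takes part in transcription and RNA processing, and the other 3 encode zinc finger proteins. These correlations describe 1 set of 12 libraries that share sorting batches and RNA quality, and 19633 genes were ranked. Without filtered-air mouse 4 they were 0.927, 0.893, 0.908, 0.895 and 0.820. None of the 5 genes passed the exposure test. Their differences ranged from -0.055 for Thrap3 to 0.025 for Zfp599, with limma adjusted p of 0.636 or more. Among the members Rgs2 was the nearest to Rgs1, with 4335 genes more like it.

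Rgs1, Rgs2 and Rgs18 are neighbours on chromosome 1, so the surrounding genes were also read, a choice made after the values were seen. Within 1 Mb on each side of Rgs1 the GRCm38 annotation holds 10 protein-coding genes, 3 of them members. Rgs2 lies 238 kb and Rgs18 503 kb away. Of the 7 other genes 5 were kept, and 0 of 5 passed the test. Cdc73 differed by -0.022, B3galt2 by 0.024, Glrx2 by -0.045, Uchl5 by -0.00044 and Ro60 by -0.13. Ro60, an RNA-binding autoantigen, had the 1 unadjusted p under 0.05 (limma adjusted p = 0.254). Over all genes kept 4.25% passed, so nothing is read from 0 of 5 neighbours passing. Annotated genes overlap 4 other members (Rgs3, Rgs16, Rgs10 and Rgs12) but not Rgs1, and the strand setting of the counting is not given in the sources used here.

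The proteins that RGS proteins act with were read from 6 lists. Of 70 genes kept of 71, 4 were called higher and 0 lower in limma, or 5.71%, against 4.25% over all genes. Without filtered-air mouse 4, 4 were again called. By sign 23 were higher and 47 lower, with a median of -0.026. These lists were drawn up with earlier results of the data known.

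Among receptors, 2 of 12 passed, both for CXC chemokines, and 9 of 12 were higher with a median difference of 0.035. Ccr1, a receptor for CC chemokines singled out after its values were seen, did not pass (difference -0.24 ± 0.064 SE, limma adjusted p = 0.0507). In 5 of 6 ozone mice it lay below all filtered-air mice. Fpr1, singled out in the same way, was higher but did not pass (difference 0.18 ± 0.052 SE, limma adjusted p = 0.0710). In 4 of 6 ozone mice Fpr1 lay above all filtered-air mice. Cxcr2, a receptor for neutrophil-attracting chemokines, lay between -0.25 and 0.32 in filtered air and between 0.59 and 1.02 after ozone, without overlap. Its difference was 0.79 ± 0.091 (SE, limma adjusted p = 0.000451). Cxcr4, the receptor for Cxcl12, lay between -0.084 and 0.097 in filtered air and between 0.070 and 0.49 after ozone. In 5 of 6 ozone mice it was above all filtered-air mice, and its difference was 0.35 ± 0.063 (SE, limma adjusted p = 0.0062). Of 6 neutrophil markers, Camp was constant and Ngp was not kept, and 0 of the 4 kept passed (1 had an unadjusted p under 0.05). The mean of those kept ranged from -0.12 to -0.0032 in ozone mice and from -0.14 to 0.24 in filtered-air mice, the highest being mouse 4. That mouse also had the highest filtered-air mean over the 12 receptors, at 0.16. Within single batches neither receptor passed, with differences of 0.68 and 0.89 for Cxcr2 and 0.25 and 0.45 for Cxcr4.

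Of 12 G alpha genes, Gna12 rose. This alpha subunit lay between -0.12 and 0.10 in filtered air and between 0.099 and 0.26 after ozone, where 5 of 6 mice exceeded all filtered-air mice. Its difference was 0.19 ± 0.044 (SE, limma adjusted p = 0.0228). The list's median was -0.034. Without filtered-air mouse 1, filtered-air mouse 3 or ozone mouse 5, Gna12 had adjusted p = 0.0517, 0.0516 and 0.0588, and its difference stayed at 0.18 to 0.19. It also missed the threshold after quantile normalization (difference 0.17, adjusted p = 0.112) and in each batch alone (differences 0.15 and 0.24, adjusted p = 0.387 and 0.309). Gna13, the other subunit of this class, singled out after its values were seen, did not pass (difference -0.17 ± 0.050 SE, limma adjusted p = 0.0717), although 6 of 6 ozone mice lay below all filtered-air mice.

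Of the 9 other modulators of G alpha cycling, Gpsm2 passed. It encodes a protein with GoLoco motifs that bind inactive Gi alpha subunits, and it serves in spindle orientation. Gpsm2 rose by 0.31 ± 0.063 (SE, limma adjusted p = 0.0117), with ozone values of 0.051 to 0.43 against filtered-air values of -0.12 to 0.16. It was above all filtered-air mice in 5 of 6 ozone mice, the exception being ozone mouse 1. After quantile normalization it missed the threshold (difference 0.24, adjusted p = 0.140), as it did in batch 2 alone (0.22, adjusted p = 0.582) but not in batch 1 alone (0.41, adjusted p = 0.0219). Ric8a, a chaperone of G alpha subunits singled out after its values were seen, did not pass (difference -0.12 ± 0.036 SE, limma adjusted p = 0.0920), although its groups did not overlap. The list's median was -0.011.

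The other 3 lists held no called gene, although 2, 0 and 4 of their genes, in the order given here, had an unadjusted p under 0.05. Of 14 G beta and gamma genes 13 had lower means after ozone, with a median of -0.051; the exception, Gng12, had the smallest p (difference 0.22 ± 0.068 SE, limma adjusted p = 0.0823). The 7 receptor kinases and arrestins had a median of -0.055, and Grk6 had the smallest p (difference -0.057 ± 0.038 SE, limma adjusted p = 0.523). The 16 effectors, which are adenylyl cyclases, phospholipase C beta enzymes and subunits of PI3K gamma, had a median of -0.028. Plcb2, the phospholipase C beta of blood cells, had the smallest p there, with a difference of 0.31 ± 0.093 (SE, limma adjusted p = 0.0777). Without filtered-air mouse 5 Plcb2 passed, at a difference of 0.37 (adjusted p = 0.0315). It also passed with a block for same-numbered mice, which are different animals (limma adjusted p = 0.00693).

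**Figure D5:**
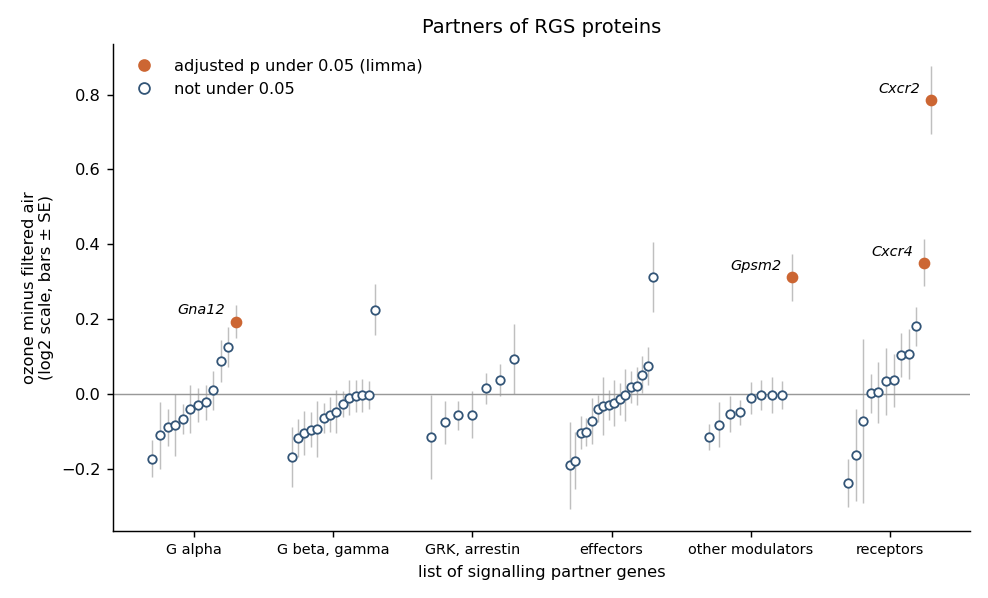
Difference between ozone and filtered air (y axis, log2 scale) for 70 signalling partner genes in 6 lists (x axis). Bars are ± the moderated limma SE (6 mice per group), and filled points have a limma adjusted p under 0.05. The filled points are Cxcr2, Cxcr4, Gpsm2 and Gna12, and 13 of 14 G beta and gamma genes lie below 0.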

How the data were processed

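Alveolar macrophage RNA of 12 mice was sequenced from a stranded mRNA library kit, per the labels' protocols. The authors deposited 1 table of variance-stabilized, batch-corrected values on a log2-like scale, per its name; the submitters' processing notes name cutadapt, STAR 2.7.7a, Salmon 1.5.2, DESeq2 1.26.0, R 3.6.0, limma 3.42.2 and build mm10, without roles. The annotation and the treatment of shared reads are not given in the sources used here. All 12 columns matched a labelled mouse. Counts were not analysed here. Genes were kept when at least 6 of 12 mice stood above the shared minimum of their batch (19633 of 25444 that varied). limma 3.58.1 in R 4.3.3 fitted exposure and flow-sort batch to the deposited log2-scale values, without a variance trend, with Benjamini-Hochberg adjustment over all genes kept and a threshold of 0.05; the fit was tested on simulated data. The p-values measure the spread between these mice. Correlations used deviations from group means and 100000 resamples, which shuffled the mice without regard to group or batch. The members and all lists were chosen with earlier results of these data known. Named were the 9 members, each called gene and the gene of smallest p in the other lists, and the 5 genes most correlated with Rgs1. Coordinates are GENCODE M21 (GRCm38). Alternatives covered the variance model, the filter, scaling, covariates, single batches and each mouse left out in turn.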

Additional observations from a re-analysis of the deposited data

Results flagged for a closer look

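In 3 of 44 sets of 6 mice (22 named genes in each exposure group), the highest or lowest mouse had a gap to the next mouse that exceeded Dixon's 95% limit for the group's range. Chance alone gives about 1 in 20, or 2.2 sets. Rgs16 in ozone mouse 1 was -0.170, with the next mouse at -0.0197. Rgs19 in filtered-air mouse 1 was -0.101, with the next mouse at 0.0098. Gpsm2 in ozone mouse 1 was 0.0507, with the next mouse at 0.310.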

How the results depend on the processing

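Absolute levels, total counts and compression at low counts limit all values. Of all genes, 834 passed; 171 passed after quantile normalization, 90 in batch 1 alone and 0 in batch 2 alone, and 538 to 751 with 1 mouse left out (538 without filtered-air mouse 1). Modelling the variance on the mean value is no test of stability here, because the filtered-air mean is 0 in every gene and a mean value therefore follows the exposure difference itself: under it 0 members passed, the SE of Rgs1 was 0.83 in place of 0.17, and Cxcr2 had adjusted p = 0.159 at the same difference. Of the members, 0 passed after quantile normalization, in batch 1 alone or in batch 2 alone, and 1 in every leave-one-out fit. Of the partner genes, 2 passed after quantile normalization, 7 without the batch covariate, 1 in batch 1 alone, 0 in batch 2 alone, and 3 to 5 with 1 mouse left out. Same-numbered mice are different animals, and their deviations correlated from -0.0026 to 0.284, with 4 of 6 pairs over 0.1 and 2 of 6 best matched to their own number. With a replicate block, 1219 genes, 1 member and 8 partner genes passed, Plcb2 among them (adjusted p = 0.00693). The other RGS genes, the interaction of the members and the Rgs1 correlations gave 0 in every alternative run. Differences near 0 changed sign: with 1 mouse left out Rgs16 ranged from -0.029 to 0.029, Mtrex ranged from -0.024 to 0.00025, Zfp426 from -0.049 to 0.00027, Zfp599 from -0.0090 to 0.046 and Zik1 from -0.060 to 0.019; in batch 2 alone Zfp426 was 0.026 and Zik1 0.067. The r of Rgs1 with Rgs2 ranged from -0.0907 to 0.530 with 1 mouse left out and was -0.230 in batch 1 alone with deviations taken from the group means of that batch (-0.0945 from the overall group means). Leaving out 1 mouse, the Rgs1 difference ranged from 0.83 to 1.09. The restriction to rows before the alphabetical stretch, chosen after seeing the data, gave 917 genes, 1 member and 5 partner genes. The cause of these shifts was not tested.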
